A study of Mus musculus with 6 samples.

Results

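CD4 T cells that carried the chemokine receptor Cxcr5 but no Bcl6 reporter signal (Cxcr5+Bcl6-) were compared with cells that carried neither (Cxcr5-Bcl6-). The 2 arrays titled for each sort were taken, 4 of the 6 arrays in the series, and every probe set with a gene symbol was tested. These were 23410 probe sets, or 19938 genes when 1 probe set was kept per gene. The series asks, by its title, how Bcl6 expression relates to the follicular helper program in living mice, and the pair described here shows what differed with Cxcr5 when the reporter was negative. All groups came from Bcl6_RFP reporter mice, males of 8 to 10 weeks, immunised with KLH/CFA, the protein antigen keyhole limpet haemocyanin mixed into complete Freund's adjuvant. From the draining lymph nodes, CD4+ CD44+ cells were sorted by Cxcr5 and by red fluorescence from the Bcl6 reporter. The remaining sort, Cxcr5+Bcl6+, is used below only to place the values. Each group had 2 arrays, which the series describes as biological replicates. The sources used here do not say whether mice were pooled, how the sorted cells were handled before lysis or on which day each array was run.

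Cxcr5 leads lymphocytes towards B cell follicles along a gradient of the chemokine Cxcl13. Follicular helper T cells combine this receptor with the transcriptional repressor Bcl6, with the adaptor SAP (encoded by Sh2d1a), which couples SLAM family receptors to signalling and steadies contact with B cells, and with the cytokine Il21. CD44 is kept on antigen-experienced T cells, so each sort is expected to hold effector, memory and regulatory cells as well.

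Levels are those of probe sets, in log2 units, and each difference is the Cxcr5+Bcl6- mean minus the Cxcr5-Bcl6- mean, so that 1 stands for a doubling. A gene rose or fell only where limma's moderated test gave a Benjamini-Hochberg adjusted p under 0.05 over all 23410 probe sets. The arrays measured each sorted population in bulk, so a change in the share of cells that hold a transcript and a change in RNA per cell cannot be told apart. The 2 arrays of a group correlated at r = 0.9985 (Cxcr5+Bcl6-) or r = 0.9970 (Cxcr5-Bcl6-) across probe sets, which are not independent, and arrays of different groups at 0.9915 to 0.9924. As a low reference, 1192 olfactory, vomeronasal and trace-amine receptor genes had a median level of 5.81 and a 95th percentile of 7.48. The T cell core list of 14 genes had a mean level of 12.25 on both Cxcr5-Bcl6- arrays and of 12.33 and 12.34 on the Cxcr5+Bcl6- arrays. Of these 14 genes, Cd4 (0.51) and Thy1 (0.50) rose and the others were not called. Of the 330 members of all lists that were called, 16 lay below 7.48 on all 4 arrays, so the sizes of their differences are uncertain: Ascl2, Bank1, Cd79a, Clec10a, Clec9a, Cr2, Cxcl16, Ebf1, Gzmk, H2ac8, H3c15, Kdr, Klrb1c, Klrd1, Mybl1 and Rgs13. Where only 1 group lay below 7.48, the size of the difference is uncertain as well. Summed levels of dendritic cell genes were lower on both Cxcr5+Bcl6- arrays, with the values given beside those lists. The part of such cells in the other differences was not tested.

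The sort genes were read first. Cxcr5 (probe set 10592888) stood at 7.61 and 7.34 on the Cxcr5-Bcl6- arrays, 9.98 and 9.91 on the Cxcr5+Bcl6- arrays and 11.01 and 10.98 on the Cxcr5+Bcl6+ arrays. Its groups did not overlap, and the difference of 2.47 (SE 0.103, adjusted p = 2.07e-07) checks the labels, since the sort used this receptor. Bcl6 (probe set 10438738) stood at 10.31 on both Cxcr5-Bcl6- arrays and at 10.55 and 10.56 on the Cxcr5+Bcl6- arrays. Its difference of 0.25 (SE 0.0872) was not called (adjusted p = 0.103), although it was called after renewed quantile normalisation and when only probe sets above the median level were tested, with adjusted p between 0.0409 and 0.476 over the alternatives. In the Cxcr5+Bcl6+ sort the Bcl6 levels were 11.45 and 11.55, and the difference from Cxcr5+Bcl6- was 0.94 (adjusted p = 1.4e-05).

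Over the whole table, 2610 probe sets passed the threshold (11.1%), 1221 of them higher in Cxcr5+Bcl6- (5.22%) and 1389 lower (5.93%). By gene, 1097 of 19938 were higher (5.5%) and 1095 lower (5.49%). Counts for the gene lists below are to be read beside these shares of all genes. At least a 2-fold difference was reached by 116 of the higher and 100 of the lower genes, and the median difference over all genes was -0.03. The count leaned on each Cxcr5+Bcl6- array, since 1317 probe sets were called without replicate 1 and 1401 without replicate 2 of that group.

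**Figure D1:**
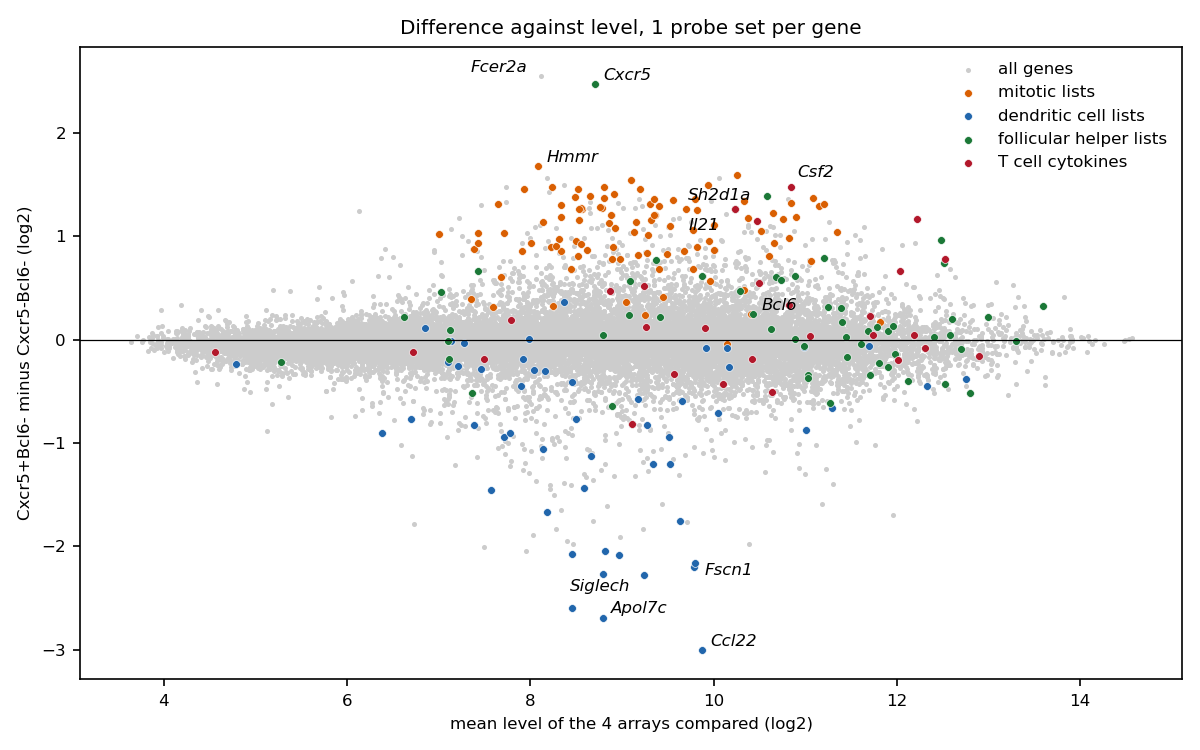
Each point is 1 gene, with its mean log2 level over the 4 arrays compared on the x axis and the log2 difference, Cxcr5+Bcl6- minus Cxcr5-Bcl6-, on the y axis; colours mark members of 4 groups of gene lists and grey marks the other genes. Mitotic genes form a band centred on 1.06, dendritic cell genes reach down to -3.00 for Ccl22, and Cxcr5 and Fcer2a lie at 2.47 and 2.55, each against a Cxcr5-Bcl6- mean below or close to the low reference of 7.48.

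Among the gene lists used here, those of mitosis held the most genes that rose in Cxcr5+Bcl6- cells. Rises outside the lists were not sorted by function. Of 97 measured members of 4 mitotic lists, 90 rose and 0 fell in the limma fit, with a median difference of 1.06 against -0.03 over all genes. At an unadjusted p under 0.05, 94 were higher and 0 lower. Leaving out any 1 array gave 86 to 93 rises. Levels of the 97 genes, summed on the linear scale, were 55986 and 51288 on the Cxcr5-Bcl6- arrays, 109856 and 105227 on the Cxcr5+Bcl6- arrays, and 86234 and 90613 on the Cxcr5+Bcl6+ arrays. The Cxcr5+Bcl6- sums were thus the highest of the 3 groups on both arrays.

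Every measured gene of the list of spindle motors, midbody and cytokinesis rose, 28 of 28, with a median of 1.26. Hmmr (probe set 10385248), a hyaluronan receptor that also binds spindle microtubules, stood at 7.26 and 7.22 on the Cxcr5-Bcl6- arrays and at 9.01 and 8.84 on the Cxcr5+Bcl6- arrays, a difference of 1.68 (SE 0.0921, adjusted p = 1.34e-06). Both Cxcr5+Bcl6+ arrays lay between these groups, at 8.21 and 8.20. Nusap1, which bundles spindle microtubules, rose 2.83-fold, from 9.16 and 9.21 to 10.69 and 10.68. The kinesin motors Kif4 (1.48), Kif2c (1.48) and Kif11 (1.34) and the spindle assembly factor Tpx2 (1.37) moved the same way.

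Of the cyclins, mitotic kinases and their regulators, 26 of 27 rose, with a median of 1.13. Bub1, a kinase of the spindle checkpoint, stood at 8.37 and 8.28 on the Cxcr5-Bcl6- arrays and at 9.87 on both Cxcr5+Bcl6- arrays, 1.55 higher (SE 0.107, adjusted p = 7.02e-06). Cdc25b, a phosphatase that activates the mitotic cyclin-dependent kinase Cdk1, was the only gene of this list that was higher again in the Cxcr5+Bcl6+ sort. Its levels were 9.42 and 9.50, then 10.99 and 11.11, then 11.82 and 11.92 in the order Cxcr5-Bcl6-, Cxcr5+Bcl6- and Cxcr5+Bcl6+, so that all 3 groups were apart. Cyclin genes Ccna2 (1.30) and Ccnb2 (1.31), Cdk1 itself (1.18), Aurkb (1.23) and Mastl (1.46), a kinase that restrains the phosphatase opposing Cdk1, also rose.

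At the kinetochore, where chromosomes attach to the spindle, 27 of 30 genes rose with a median of 0.97. Cenpe, a kinetochore motor, rose by 1.46 from 7.86 and 7.73 to 9.28 and 9.23, and Cenpf (1.18), Nuf2 (1.28) and Sgo1 (1.21) followed it. Of 13 chromosome condensation genes, 10 rose, with a median of 0.96. They included the proliferation marker Mki67, at 10.42 and 10.38 in Cxcr5-Bcl6- and 11.77 on both Cxcr5+Bcl6- arrays (1.37, adjusted p = 5.04e-06). Top2a, the topoisomerase that untangles sister chromatids, rose by 1.32 on the probe set used. Another Top2a probe set was not called (0.14), with group means of 4.51 and 4.66, below the low reference's median of 5.81.

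Promoter sequence was set beside this group because its members rose together. RefSeq windows on GRCm38.p6, from 250 bases before to 50 bases after a transcript start, matched by symbol to 76 of the 90 mitotic genes that rose (82 windows) and to 15614 of the 19938 genes tested (19177 windows). Searched on both strands were CCAAT, the CHR letters TTTGAA and TTCGAA, and the E2F letters TTGGCGC or TTCCCGC or TTGCCGC or TTCGCGC. The letters TTCGAA read the same on both strands, and none of the 3 sets of letters contains another. As background, CHR and CCAAT elements are known from promoters of genes expressed late in the cell cycle and E2F sites from those expressed around S phase. Of the 82 mitotic windows, 65.9% held a CHR match against 16.5% of all windows, 70.7% held CCAAT against 37.4%, and 53.7% held both against 6.56%. E2F letters were in 24.4% of them against 12.8% of all windows. A match is a description of these letters and shows neither a bound site nor a cause. The lists were chosen by function, and members that did not rise were not searched apart. These shares, and those of the replication genes below, therefore cannot be tied to the rise. Shown so that their spacing can be read are the 4 largest rises with both elements close to the start. Each of these genes has 1 window that begins at the outer end of the gene, and genes on 1 chromosome were left out. Each stretch covers 120 bases before to 25 after the start, and capitals mark CHR and CCAAT letters on either strand. On the other strand, CCAAT reads as ATTGG and TTTGAA as TTCAAA.
Bub1, chr2:127831835-127831979, minus strand: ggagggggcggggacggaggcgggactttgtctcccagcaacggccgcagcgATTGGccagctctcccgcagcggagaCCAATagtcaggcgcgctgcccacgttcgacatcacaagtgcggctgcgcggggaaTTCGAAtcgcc
Kif4, chrX:100625945-100626089, plus strand: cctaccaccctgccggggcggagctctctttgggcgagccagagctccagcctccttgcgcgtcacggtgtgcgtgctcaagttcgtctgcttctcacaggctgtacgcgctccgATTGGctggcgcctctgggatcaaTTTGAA
Kif11, chr19:37376262-37376406, plus strand: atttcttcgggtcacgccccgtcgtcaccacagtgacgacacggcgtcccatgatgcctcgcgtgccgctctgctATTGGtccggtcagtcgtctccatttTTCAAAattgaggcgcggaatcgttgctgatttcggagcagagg
Ccnb2, chr9:70421530-70421674, minus strand: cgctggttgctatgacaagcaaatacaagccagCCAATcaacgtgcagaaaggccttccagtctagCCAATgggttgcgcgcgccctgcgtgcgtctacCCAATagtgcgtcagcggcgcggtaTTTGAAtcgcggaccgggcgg
In Kif11 the CHR letters spanned positions -19 to -14 from the start and the CCAAT letters -45 to -41. In Bub1, Kif4 and Ccnb2 a CHR match lay just after the annotated start, beginning at base 15, 20 and 5 of the transcript. Ccnb2 held CCAAT 3 times in the stretch, beginning at -87, -54 and -21.

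DNA replication genes moved less than mitotic genes. Of 38 genes of replication licensing and the fork, 18 rose and 0 fell in the limma fit, with a median of 0.33, and 27 were higher and 2 lower at an unadjusted p under 0.05. The largest rises were Rpa1, which coats single-stranded DNA (0.90), the helicase component Cdc45 (0.77), the initiation factor Mcm10 (0.74) and the checkpoint mediator Clspn (0.70). Cdc45 stood at 8.91 and 8.87 on the Cxcr5-Bcl6- arrays and at 9.68 and 9.63 on the Cxcr5+Bcl6- arrays. The sliding clamp gene Pcna (-0.14, adjusted p = 0.455) and the helicase subunit Mcm2 (-0.24, adjusted p = 0.139) were not called. The count fell to 7 without Cxcr5+Bcl6- replicate 1, 11 without Cxcr5+Bcl6- replicate 2 and 10 without Cxcr5-Bcl6- replicate 2. In 19 windows of 15 of the 18 genes, 73.7% held E2F letters, 68.4% CCAAT and 10.5% CHR letters, against 12.8%, 37.4% and 16.5% of all windows. The 2 largest rises that met the same rule with E2F letters are shown with those letters in capitals, and TTCCCGC reads as GCGGGAA on the other strand.
Dtl, chr1:191575520-191575664, minus strand: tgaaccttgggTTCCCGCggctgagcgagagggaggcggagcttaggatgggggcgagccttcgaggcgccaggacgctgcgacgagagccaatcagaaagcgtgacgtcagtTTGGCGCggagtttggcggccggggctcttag
Rfc4, chr16:23127706-23127850, minus strand: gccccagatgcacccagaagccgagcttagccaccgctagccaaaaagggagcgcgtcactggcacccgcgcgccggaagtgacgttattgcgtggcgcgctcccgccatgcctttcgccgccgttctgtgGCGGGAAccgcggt
Dtl encodes the substrate adaptor that removes the licensing factor Cdt1 during S phase and rose by 0.62. Rfc4, a subunit of the clamp loader, rose by 0.55.

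Repair genes that act at stalled or broken forks rose in 15 of 18 cases with a median of 0.61, among them the glycosylase Neil3 (1.08) and the Fanconi protein gene Fancd2 (0.98). Of 26 measured genes for replication-dependent histones, out of 90 listed, 19 rose with a median of 0.59. H2ac4 had the largest difference, from 9.39 and 9.16 to 10.76 and 10.92 (1.57, adjusted p = 5.28e-06). Histone genes are near-identical copies that probes may share, so single histone values are uncertain.

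Genes that supply nucleotides split in 2 directions. Of 14, 4 rose and 6 fell. The deoxynucleotide enzymes rose: the ribonucleotide reductase subunits Rrm2 (1.09) and Rrm1 (0.71), thymidylate synthase Tyms (0.89) and thymidine kinase Tk1 (0.37). The genes that fell belonged to purine, pyrimidine and one-carbon synthesis, namely Umps (-0.58), Ctps (-0.56), Cad (-0.55), Gart (-0.46), Ppat (-0.39) and Shmt2 (-0.32). Cad, for example, stood at 10.99 and 11.11 on the Cxcr5-Bcl6- arrays and 10.42 and 10.58 on the Cxcr5+Bcl6- arrays. Only 2 of the 6 falls were called without Cxcr5+Bcl6- replicate 1 and 3 without replicate 2 of that group.

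Among 22 genes of G1 entry and its inhibitors, 10 rose and 3 fell. Those that rose held the cyclin E gene Ccne1 (0.74) and the atypical repressors E2f8 (0.82) and E2f7 (0.58), but also the cyclin-dependent kinase inhibitors Cdkn2c (1.06) and Cdkn1b (0.65). The 3 that fell were Ccnd1 (-0.96), Ccnd2 (-0.44) and Myc (-0.43), genes for 2 D cyclins and for the growth-driving transcription factor. Ccnd1 stood at 8.61 on both Cxcr5-Bcl6- arrays and at 7.60 and 7.69 on the Cxcr5+Bcl6- arrays. Only 1 of these falls was called without Cxcr5+Bcl6- replicate 2. Myc lost its call without either Cxcr5+Bcl6- array, with adjusted p up to 0.0885.

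**Figure D2:**
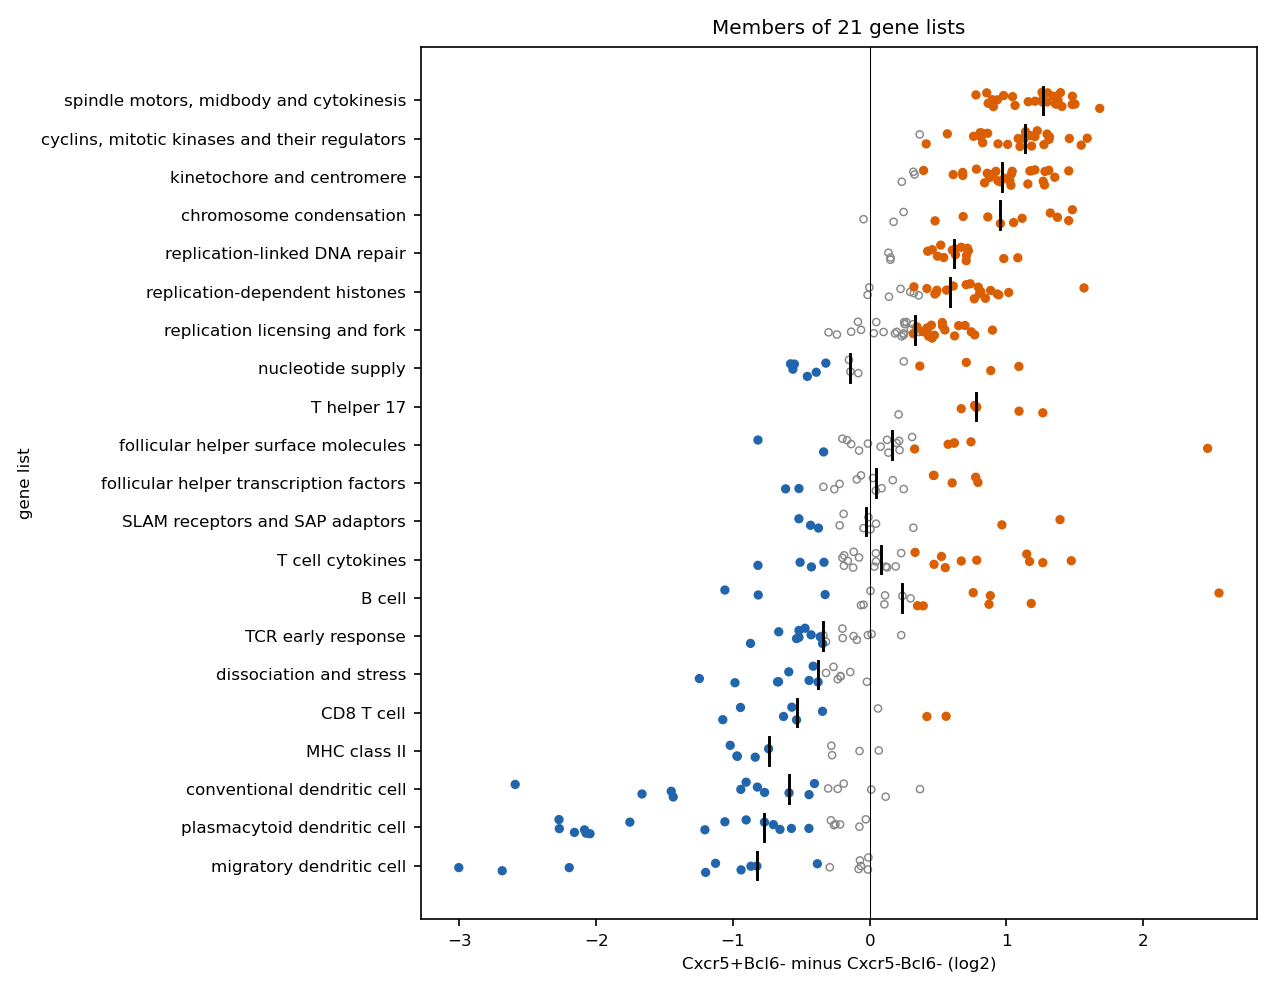
Each point is 1 gene of a list, placed at its log2 difference, Cxcr5+Bcl6- minus Cxcr5-Bcl6-; orange points rose, blue points fell, open points were not called, and the black bar is the list's median over measured members. The 4 mitotic lists have medians from 0.96 to 1.26, the 3 dendritic cell lists from -0.83 to -0.59, and the follicular helper and cytokine lists hold calls on both sides of 0.

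Follicular helper genes were divided. Over 60 genes of 4 follicular helper lists, 16 rose and 10 fell, with a median of 0.08, and without the sort genes Bcl6 and Cxcr5 the counts were 15 and 10 of 58. The shares of rises and falls lay above those of all genes (5.5% and 5.49%), while the falls came to 5 and 4 without Cxcr5+Bcl6- replicates 1 and 2.

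Of the SLAM receptors and their SAP adaptors, 2 of 12 rose and 3 fell, beside 5.5% and 5.49% of all genes. Sh2d1a stood at 10.02 and 9.76 on the Cxcr5-Bcl6- arrays, 11.31 and 11.26 on the Cxcr5+Bcl6- arrays and 12.23 and 12.24 on the Cxcr5+Bcl6+ arrays. The 3 groups were apart, with differences of 1.39 (SE 0.101, adjusted p = 8.87e-06) for the first step and 0.95 (adjusted p = 3.92e-05) for the second. Slamf6, a receptor that signals through SAP, went from 12.03 and 11.97 to a mean of 12.96 ± 0.0487 (SD, n = 2 arrays; 0.97, adjusted p = 3.48e-05). In the Cxcr5+Bcl6+ sort it was at 13.16 and 13.18, a second difference of 0.20 that was not called (adjusted p = 0.109). Slamf1 (-0.43), Slamf7 (-0.37) and Slamf9 (-0.52) fell, but none of the 3 falls was called without Cxcr5+Bcl6- replicate 1 or without replicate 2, and 1 was called without Cxcr5-Bcl6- replicate 2. Cd84 (0.32, adjusted p = 0.0791) and Ly9 (-0.05) were not called.

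Of 17 follicular helper transcription factors, 5 rose and 2 fell, beside 5.5% and 5.49% of all genes. Maf, which drives Il21 transcription, stood at 10.74 and 10.87 on the Cxcr5-Bcl6- arrays and 11.62 and 11.58 on the Cxcr5+Bcl6- arrays (0.79, adjusted p = 0.000163). Its Cxcr5+Bcl6+ levels, 11.58 and 11.60, were close to those of Cxcr5+Bcl6-, and the difference of -0.01 was not called (adjusted p = 0.952). The HMG-box gene Tox2 rose in steps, from 8.95 and 9.01 to 9.68 and 9.83 (0.77, adjusted p = 0.000442) and to 10.87 and 11.07 in Cxcr5+Bcl6+ (a further 1.21). Batf, an AP-1 family factor, was highest in Cxcr5+Bcl6-, at 11.04 and 10.93 against 10.50 and 10.27 in Cxcr5-Bcl6- and 10.57 and 10.46 in Cxcr5+Bcl6+. Ascl2 and Nfatc2 each differed by 0.47, with adjusted p of 0.0108 and 0.0112. Ascl2, which can induce Cxcr5, lost its call without Cxcr5+Bcl6- replicate 1 or Cxcr5-Bcl6- replicate 2, and Nfatc2 without Cxcr5+Bcl6- replicate 2 or Cxcr5-Bcl6- replicate 1, with adjusted p up to 0.129 and 0.112. The factors that fell were Bach2 (-0.62), a repressor of effector differentiation, and Irf4 (-0.52), which antigen receptor signals induce. Tox (0.17), Lef1 (0.09), Id3 (0.04) and Stat3 (0.02) were not called.

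Of 20 follicular helper surface molecules, 6 rose and 2 fell. Beside Cxcr5 these were the coinhibitory receptor Tigit (0.74), the ATP-gated channel P2rx7 (0.62), the chemokine receptor Cxcr4 (0.62), the ectonucleotidase Nt5e, or CD73 (0.57), and the costimulator Icos (0.33). Cxcr4 stood at 10.60 and 10.55, then 11.17 and 11.22, then 12.79 and 12.92 in the order Cxcr5-Bcl6-, Cxcr5+Bcl6- and Cxcr5+Bcl6+, so that the second difference (1.66) was larger than the first. Icos was the least firm of them, at 13.45 and 13.41 against 13.78 and 13.74, and its call was lost without any 1 of the 4 arrays (adjusted p up to 0.272). Pdcd1, the gene for the PD-1 receptor used to identify follicular helper cells, differed by 0.14 and was not called (adjusted p = 0.437), nor was Cd40lg (-0.20). Fasl (-0.82) and Il21r (-0.34) fell, and Il21r lost its call without any 1 of the 4 arrays (adjusted p up to 0.291). Sostdc1, a secreted antagonist from the list of other follicular helper genes, rose by 0.67 here, from 7.01 and 7.19 to 7.78 and 7.75. It was 2.29 higher again in the Cxcr5+Bcl6+ sort. Its Cxcr5-Bcl6- levels lay below 7.48, so the size of the first difference is uncertain. Of 17 genes opposed to follicular helper fate, 3 rose and 2 fell, beside 5.5% and 5.49% of all genes, with a median of 0.06. The rises were Ccr6 (0.78), Zeb2 (0.46) and S1pr1 (0.40). The calls of Zeb2 and S1pr1 were lost when probe sets without a symbol were tested too.

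The cytokine Il21 (probe set 10497886) had its highest level in Cxcr5+Bcl6- cells. It stood at 9.80 and 9.40 on the Cxcr5-Bcl6- arrays, 10.94 and 10.79 on the Cxcr5+Bcl6- arrays and 10.12 and 10.16 on the Cxcr5+Bcl6+ arrays, without overlap between any 2 groups. The difference between the first pair of groups was 1.27 (SE 0.124, adjusted p = 5.91e-05), and Cxcr5+Bcl6+ lay 0.72 below Cxcr5+Bcl6- (log2 difference -0.72, adjusted p = 0.00124).

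**Figure D3:**
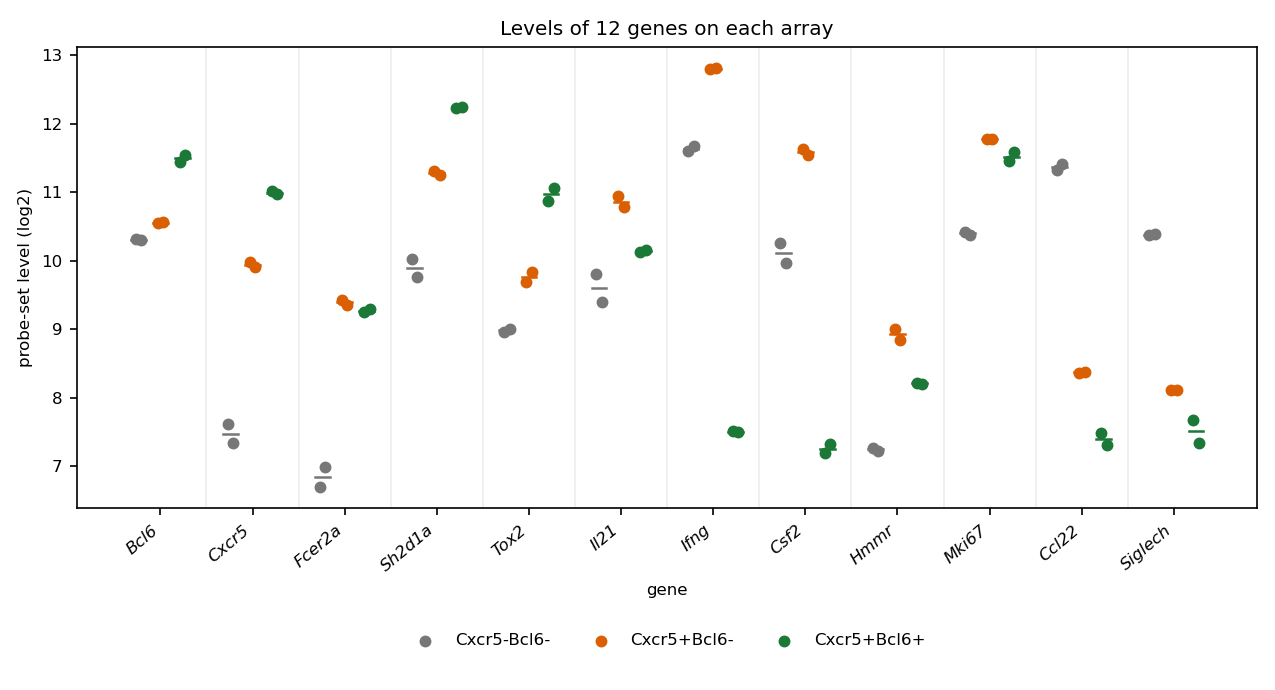
The log2 probe-set level of 12 genes is plotted on the y axis for each of the 6 arrays, coloured by sorted group, with a bar at the group mean; genes stand along the x axis. Sh2d1a, Tox2 and Cxcr5 climb over the 3 groups, Il21, Ifng, Csf2 and Hmmr are highest in Cxcr5+Bcl6-, and Ccl22 and Siglech are highest in Cxcr5-Bcl6-.

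Of 28 T cell cytokine genes, 10 rose and 4 fell, beside 5.5% and 5.49% of all genes. Csf2, which encodes GM-CSF, stood at 10.26 and 9.97 on the Cxcr5-Bcl6- arrays and 11.63 and 11.54 on the Cxcr5+Bcl6- arrays (1.47, SE 0.11, adjusted p = 9.67e-06). Ifng, the signature cytokine of T helper 1 cells, went from 11.60 and 11.67 to 12.80 and 12.82 (1.17, adjusted p = 9.26e-06), and Il3, a growth factor for myeloid and mast cells, from 10.05 and 9.75 to 11.11 and 10.99 (1.15, adjusted p = 5.81e-05). The groups did not overlap for any of these 3 genes. Both Cxcr5+Bcl6+ arrays were at 7.50 for Ifng, 7.18 and 7.32 for Csf2 and 5.31 and 5.44 for Il3. The levels of all 3 in the Cxcr5+Bcl6+ sort were below those of both other groups, so that they were not ordered as Cxcr5 was, and they lay close to or below the 7.48 of the low reference. Smaller rises were found for Il17f (0.78), Il17a (0.67), Il10 (0.55), Ebi3 (0.52), Il16 (0.47) and Tnfsf14 (0.33). Without Cxcr5+Bcl6- replicate 1 the calls of Il10, Ebi3, Il16 and Tnfsf14 were lost, and the Tnfsf14 call was lost without any 1 of the 4 arrays. The Il10 call was also lost without either Cxcr5-Bcl6- array and after renewed quantile normalisation. That of Osm, below, was lost without any 1 of the 4 arrays and after median centring. The genes that fell were Fasl (-0.82), Lif (-0.51), Il4 (-0.43) and Osm (-0.33), of which only 1 was called without Cxcr5+Bcl6- replicate 2 and 1 without Cxcr5-Bcl6- replicate 1. Il2 (0.23), Tnf (-0.16) and Il13 (0.12) were not called.

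The T helper 17 list moved in 1 direction, with 6 of 7 measured genes higher and a median of 0.78. Beside Il21, Il17a and Il17f these were the receptor Il23r, at a mean of 8.96 ± 0.0588 (SD, n = 2 arrays) against 10.07 and 10.02 (1.09, adjusted p = 2.52e-05), the chemokine receptor Ccr6 (0.78) and the lineage factor Rora (0.77). Ahr was not called (0.21). Iltifb, an Il22 paralogue looked up after its values were seen, had 9.29 and 9.31 in Cxcr5-Bcl6- and 10.61 and 10.68 in Cxcr5+Bcl6-, 1.34 higher, and a near-identical copy may share its probes.

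T helper 1 genes moved in both directions, where 5.5% of all genes rose and 5.49% fell. Of 14, 5 rose: Ifng, the chemokine receptor Cxcr3 (0.91), the Il18 receptor chains Il18rap (0.65) and Il18r1 (0.60), and Stat4 (0.48). The 3 that fell were the transcription factors Eomes (-0.95) and Tbx21 (-0.33) and the Il12 receptor chain Il12rb2 (-0.38). Tbx21, which directs the T helper 1 lineage, was at 11.64 and 11.61 against 11.29 on both Cxcr5+Bcl6- arrays (adjusted p = 0.0287). Leaving out any 1 array left only 1 of these 3 falls called. Of 9 T helper 2 genes, Il10 rose, Il4 and Il4ra (-0.40) fell, and Gata3, their lineage factor, was not called (-0.24). Each of these 3 calls was lost without at least 2 of the 4 arrays.

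Of 18 regulatory T cell genes, 4 rose and 4 fell, beside 5.5% and 5.49% of all genes. Foxp3 was at 12.50 and 12.77 on the Cxcr5-Bcl6- arrays and 12.34 and 12.49 on the Cxcr5+Bcl6- arrays, groups that nearly touched, and the difference of -0.22 was not called (adjusted p = 0.272). On the Cxcr5+Bcl6+ arrays it was at 9.72 and 9.76. The receptor Gpr83 fell from 11.92 and 12.04 to 10.37 and 10.41 (-1.59, adjusted p = 2.08e-06), and Lrrc32, which holds latent TGF-beta on the surface, from 12.20 and 12.34 to 11.24 and 11.27 (-1.01). Ikzf4 (-0.58) and Klrg1 (-0.64) also fell. Nt5e, Il10, Ebi3 and Itgae (0.37) made up the rises, of which 1 was called without Cxcr5+Bcl6- replicate 1 and 2 without Cxcr5-Bcl6- replicate 2. Of 11 naive and central memory genes, 5 fell, led by Igfbp4 (-1.15) and the survival gene Bcl2 (-0.99), and S1pr1 (0.40) rose. Without Cxcr5+Bcl6- replicate 1, Cxcr5+Bcl6- replicate 2 or Cxcr5-Bcl6- replicate 2, 3 of these falls and 0 rises were called.

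Genes of the early T cell receptor response were lower. Of 18, 0 rose and 9 fell in the limma fit (1 and 12 at an unadjusted p under 0.05), with a median of -0.34, led by the phosphatases Dusp5 (-0.87) and Dusp2 (-0.67) and by the activation marker Cd69 (-0.54). Dusp5 stood at 11.19 and 11.37 against 10.39 and 10.43. Only 4 falls were called without Cxcr5+Bcl6- replicate 1. The list of dissociation and stress genes, which handling of cells can induce, moved the same way, with 8 of 15 lower and 0 higher in the limma fit (13 and 0 at an unadjusted p under 0.05) and a median of -0.38. Without Cxcr5+Bcl6- replicate 1, 5 were lower. It was led by Atf3 (-1.25), Jun (-0.99), Fosb (-0.67) and Fos (-0.67), and its summed linear levels were 38298 and 38820 in Cxcr5-Bcl6- and 29566 and 29400 in Cxcr5+Bcl6-. The part of handling in the early response genes was not tested.

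The largest falls belonged to genes of dendritic cells, which a CD4 T cell sort can hold in part. Over 3 dendritic cell lists, 35 of 53 genes fell and 0 rose in the limma fit (40 and 1 at an unadjusted p under 0.05), with a median of -0.77, and leaving out any 1 array gave 31 to 35 falls. Summed linear levels of the 53 genes were 68700 and 67113 on the Cxcr5-Bcl6- arrays, 43996 and 43679 on the Cxcr5+Bcl6- arrays and 31139 and 32211 on the Cxcr5+Bcl6+ arrays. These sums were thus ordered the opposite way to Cxcr5.

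Ccl22, a chemokine of mature dendritic cells that attracts Ccr4+ T cells and can also be made by activated T cells, had the largest fall. It stood at 11.33 and 11.42 on the Cxcr5-Bcl6- arrays and at 8.37 on both Cxcr5+Bcl6- arrays (-3.00, SE 0.0942, adjusted p = 5.11e-08). Fscn1, the actin-bundling protein of migratory dendritic cells, went from 10.88 and 10.90 to 8.75 and 8.64 (-2.20). Apol7c fell by 2.69, although its Cxcr5-Bcl6- arrays differed from each other, at 10.65 and 9.62. Of 15 migratory dendritic cell genes, 9 fell, with the costimulators Cd40 (-0.94), Cd86 (-1.13) and Cd80 (-1.20) among them, while Cd83 (-0.06) and Il12b (-0.01) were not called.

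Of 21 plasmacytoid dendritic cell genes, 15 fell and 0 rose in the limma fit (18 and 0 at an unadjusted p under 0.05), with a median of -0.77. Siglech, a surface lectin that defines these cells in mice, was at 10.38 and 10.39 on the Cxcr5-Bcl6- arrays, 8.11 on both Cxcr5+Bcl6- arrays and 7.67 and 7.34 on the Cxcr5+Bcl6+ arrays (-2.27 for the first step, adjusted p = 5.42e-07). Pld4 (-2.27), Ly6d (-2.16), Mpeg1 (-2.09), Ccr9 (-2.07), Rnase6 (-2.05) and the lineage factor Tcf4 (-1.21) fell with it. The nucleic acid sensors Tlr7 (-0.90) and Tlr9 (-0.77) were lower too, whereas Irf7 (-0.26) was not called. Of 17 conventional dendritic cell genes, 11 fell, led by the lectins Cd209d (-2.59) and Cd209a (-1.67) and by Ifi205 (-1.45) and Sirpa (-1.44), and Flt3 (-0.94) was among them. Zbtb46 (-0.19), Xcr1 (0.12) and Batf3 (0.01) were not called. Of the 15 genes with the largest falls, Ctsh (-2.04), Lifr (-2.01), Cd180 (-1.98), Akr1c18 (-1.98) and Kmo (-1.95) stood in none of the 3 lists. The 27 windows of the dendritic cell genes that fell held CHR letters in 25.9%, CCAAT in 33.3% and E2F letters in 0%.

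Antigen presentation genes moved with the dendritic cell genes. Of 9 MHC class II genes, 5 fell and 0 rose in the limma fit (7 and 0 at an unadjusted p under 0.05), among them H2-Aa, from 11.09 and 11.07 to 10.00 and 10.12 (-1.02), and the invariant chain Cd74 (-0.84). Unlike the dendritic cell sums, the summed class II levels were lowest in Cxcr5+Bcl6-, at 7103 and 7074, against 12230 and 12399 in Cxcr5-Bcl6- and 8493 and 8546 in Cxcr5+Bcl6+. Chemokines made by several cell types also fell: Cxcl9 (-1.76), Ccl5 (-1.27), Xcl1 (-1.02), Ccl17 (-0.83) and Cxcl16 (-0.71), while Ccl1 rose (0.72). Of 20 chemokine genes, 6 fell and 1 rose, and 2 rose without Cxcr5+Bcl6- replicate 2. Of 21 genes of the type I interferon response, 4 fell, namely Oas2 (-0.98), Usp18 (-0.97), Bst2 (-0.70) and Oasl2 (-0.58), and Mx1 (0.65) and Ifih1 (0.39) rose, of which 1 was called without any 1 of the 4 arrays. The part that dendritic cells in the sorts had in these chemokine and interferon values was not tested.

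The CD8 T cell list showed 6 falls and 2 rises in 9 genes. Cd8a was at 8.57 and 8.52 on the Cxcr5-Bcl6- arrays and 7.49 and 7.45 on the Cxcr5+Bcl6- arrays (-1.07). Some dendritic cells are also known to express Cd8a, and their part in this value was not tested. Cd8b1 fell by 0.63, from 9.46 and 9.45 to 8.88 and 8.78. Klrc1 (0.56) and Gzmk (0.42) were the rises, of which 1 was called without Cxcr5+Bcl6- replicate 1, Cxcr5+Bcl6- replicate 2 or Cxcr5-Bcl6- replicate 1. Macrophage, monocyte and granulocyte genes had a median of 0.00, with 2 of 20 higher and 4 lower, beside 5.5% and 5.49% of all genes. Lyz2, which encodes lysozyme, was one of the 2, at 7.41 and 7.68 against 8.55 and 8.77 (1.11). Mpeg1 (-2.09), Tyrobp (-1.83) and Fcer1g (-0.92) were among the 4 that fell. Summed linear levels of the 20 genes were lower in Cxcr5+Bcl6-, at 4158 and 4082 against 5877 and 5987 in Cxcr5-Bcl6-. In Cxcr5+Bcl6+ they were 4008 and 4189. The median says little about this list, since 12 of these 20 genes lay below 7.48, the 95th percentile of the receptor reference, in both groups. Of 5 erythroid and platelet genes, limma called 0, and 0 passed an unadjusted p under 0.05.

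B cell genes moved in both directions. Fcer2a (probe set 10576757) encodes CD23, an IgE receptor of low affinity that follicular B cells carry. It stood at 6.69 and 6.99 on the Cxcr5-Bcl6- arrays, below the 7.48 of the reference, which leaves the size of its rise uncertain, and at 9.43 and 9.36 on the Cxcr5+Bcl6- arrays (2.55, SE 0.107, adjusted p = 2.07e-07). On the Cxcr5+Bcl6+ arrays it was at 9.25 and 9.29, which was not called against Cxcr5+Bcl6- (-0.13, adjusted p = 0.417). Of 17 B cell genes, 7 rose and 3 fell, beside 5.5% and 5.49% of all genes. The other rises were Ms4a1, or CD20, from 6.73 and 6.54 to 7.95 and 7.68 (1.18), the antigen receptor chain Cd79a (0.88), Bank1 (0.87), Ebf1 (0.76), Pax5 (0.39) and Cr2 (0.35). The size of the Ms4a1 rise is uncertain too, since its Cxcr5-Bcl6- levels lay below 7.48. Cd79b (0.24), Cd22 (0.30) and Blk (0.11) were not called, and Spib (-1.06), which plasmacytoid dendritic cells share, Fcrla (-0.82) and Ighm (-0.33) fell. Summed B cell list levels were 5401 and 5703 in Cxcr5-Bcl6-, 6169 and 6006 in Cxcr5+Bcl6- and 7484 and 7638 in Cxcr5+Bcl6+. Without Fcer2a the sums of the other 16 genes were 5298 and 5576 in Cxcr5-Bcl6- and 5478 and 5351 in Cxcr5+Bcl6-, which overlapped, and 6877 and 7013 in Cxcr5+Bcl6+. These sums mix rises with falls, among them Spib, at 8.67 and 8.66 in Cxcr5-Bcl6- against 7.52 and 7.70 in Cxcr5+Bcl6-. The mean log2 level of all 17 genes, Fcer2a included, was 7.60 and 7.68 in Cxcr5-Bcl6- and 7.98 and 7.94 in Cxcr5+Bcl6-, which did not overlap. In Cxcr5+Bcl6+ it was 8.24 and 8.28. Levels of Cd79a reached only 6.89 and 6.82 in Cxcr5+Bcl6-, below 7.48. Of 12 germinal centre B and plasma cell genes, 1 rose and 4 fell, beside the same shares of all genes. Their summed levels were 18549 and 18367 in Cxcr5-Bcl6-, 15500 and 15051 in Cxcr5+Bcl6- and 9508 and 8990 in Cxcr5+Bcl6+. Mybl1 (0.42) was the rise, which was not called without either Cxcr5+Bcl6- array or without Cxcr5-Bcl6- replicate 2, and 2 of the falls were called without Cxcr5+Bcl6- replicate 2. The part of B cells in the Fcer2a value was not tested.

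The remaining large rises lay outside these lists. Dnase1l3, a secreted nuclease, stood at 7.46 and 7.34, then 9.05 and 8.88, then 11.17 and 11.14 in the order Cxcr5-Bcl6-, Cxcr5+Bcl6- and Cxcr5+Bcl6+, with differences of 1.57 and 2.19. Ica1l followed the same order at 6.81 and 7.18, 8.46 and 8.48, and 9.71 and 9.98 (1.47 and 1.37). The sialyltransferase St6galnac1 rose by 1.49, from 7.41 and 7.83 to 9.18 and 9.06. Dnase1l3 and Ica1l were thus highest in Cxcr5+Bcl6+.

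The Cxcr5+Bcl6+ sort showed where the lists stood when the reporter was positive. Setting Cxcr5+Bcl6+ against Cxcr5+Bcl6- called 2362 genes higher (11.8%) and 2624 lower (13.2%), and it shares the Cxcr5+Bcl6- arrays with the comparison above, so the 2 are not independent. In it, 63 of the 97 mitotic genes were lower in Cxcr5+Bcl6+ and 2 were higher, with a list median of -0.39 against 0.06 over all genes. Hmmr was 0.72 lower (log2 difference -0.72, adjusted p = 0.000168), while Mki67 (-0.25, adjusted p = 0.0593) and Ccnb2 (-0.18, adjusted p = 0.214) were not called. Of the 60 follicular helper genes, 21 were higher and 20 lower. Of the 28 cytokine genes, 23 were lower and 1, Il16, was higher, with differences of -5.67 for Il3, -5.31 for Ifng and -4.33 for Csf2. Since their Cxcr5+Bcl6+ levels lay close to or below the low reference, these sizes are not ordered against each other. The 18 early T cell receptor response genes were all called lower. Of 53 dendritic cell genes, 25 were lower and 3 higher, and 6 of 9 class II genes were higher.

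**Figure D4:**
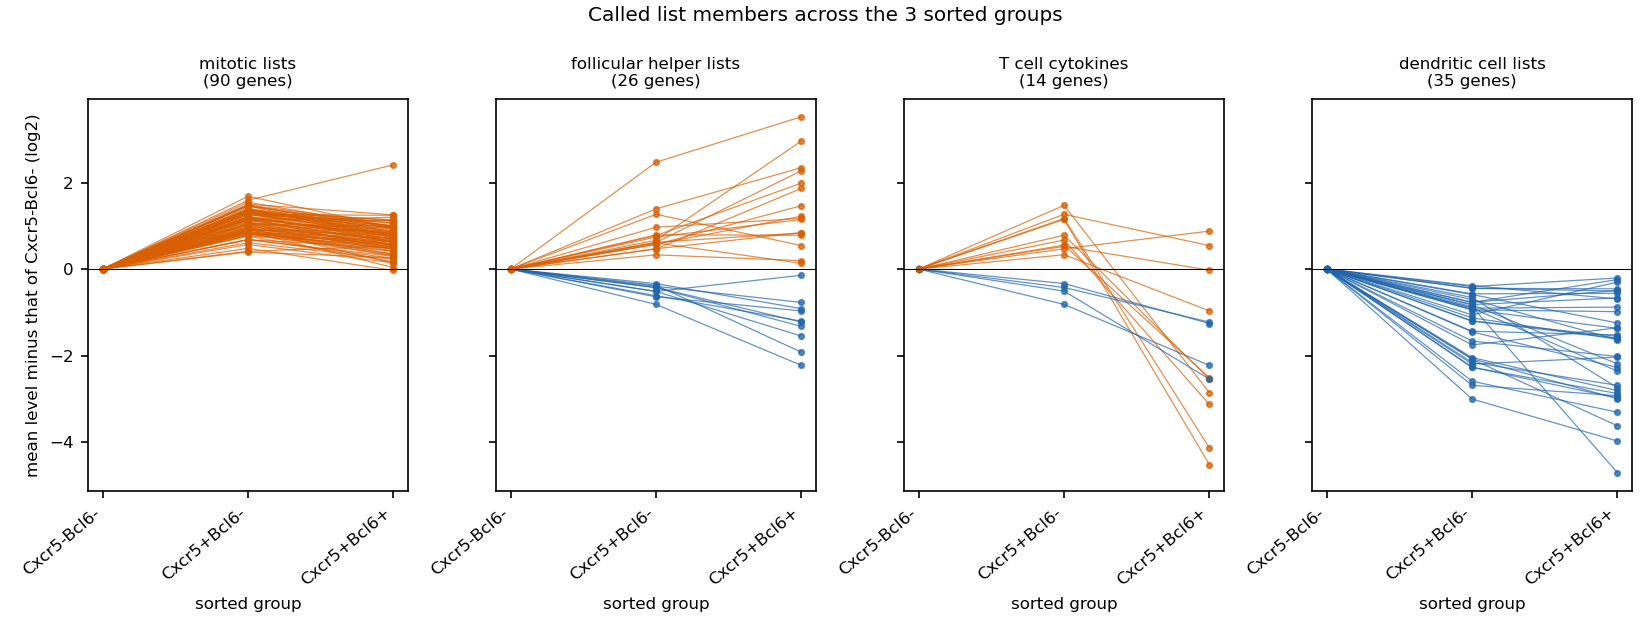
Each line is 1 gene that rose (orange) or fell (blue) in Cxcr5+Bcl6- against Cxcr5-Bcl6-; the y axis gives its mean log2 level minus that of Cxcr5-Bcl6-, and the x axis the 3 sorted groups of 2 arrays each. The first step was used to choose the genes, so its direction is fixed; beyond it most mitotic lines come down while Cdc25b goes up, follicular helper lines fan out, and Il3, Ifng and Csf2 end below their Cxcr5-Bcl6- level, close to or under the low reference of 7.48.

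Metabolic and housekeeping lists had medians from -0.15 to 0.06. Of 20 oxidative phosphorylation genes, limma called 0, and 0 passed an unadjusted p under 0.05, with a median of -0.01. Of 19 genes of glycolysis and nutrient uptake, Aldoc (0.95) and Tpi1 (0.61) rose while Slc7a5 (-0.47), Myc and Hk2 (-0.32) fell. These 2 rises and 3 falls stand beside 5.5% and 5.49% of all genes. Of these 3 falls, 0 were called without Cxcr5+Bcl6- replicate 1 and 1 without Cxcr5+Bcl6- replicate 2 or Cxcr5-Bcl6- replicate 2. Dhcr7 (0.42) alone of 16 cholesterol synthesis genes, Dnajb9 (-0.54) alone of 18 unfolded protein response genes and Rpl12 (-0.56) alone of 18 ribosomal protein genes were called. At an unadjusted p under 0.05, 3 glycolysis genes were higher and 6 lower, and 3 cholesterol synthesis genes were higher and 5 lower. The unfolded protein response list had 1 higher and 7 lower, and the ribosomal protein list 0 and 3. Summed unfolded protein response levels were 72646 and 66564 in Cxcr5-Bcl6- and 63724 and 61282 in Cxcr5+Bcl6-. The Dhcr7 call was lost without 3 of the 4 arrays (both Cxcr5+Bcl6- arrays and Cxcr5-Bcl6- replicate 1) and the Rpl12 call without Cxcr5+Bcl6- replicate 1. Without Cxcr5-Bcl6- replicate 2, 2 cholesterol synthesis, 2 unfolded protein response and 3 ribosomal protein genes were lower.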

How the data were processed

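Levels were read from the deposited series table of 6 Affymetrix whole-transcript arrays, whose values are log2 probe-set levels that the authors had normalised across arrays. The submitters' processing notes give no order or settings for RMA, GCOS 1.1 and Affymetrix Expression Console, and the log2 scale was read from the values. No depth applies to arrays, and their number limits the precision. Of 35556 rows, 23410 had a gene symbol in the platform annotation (21789 with 1, 1621 with several) and 12146 were not named here. Symbols were updated through Entrez identifiers for 21698 probe sets, and genes with several probe sets used the one with the highest mean.

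limma 3.58.1 in R 4.3.3 fitted group means over all 6 arrays (lmFit, then eBayes at defaults, two-sided, 3 residual degrees of freedom, prior 8.25 with an SD of 0.0989). The fit was tested on simulated data, in which false calls were somewhat more frequent than the nominal rate and most of the smallest changes were missed. Far fewer probe sets were changed there than were called here, so these rates need not hold for the data.

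The members and the 44 gene lists (797 genes, 674 measured) were chosen with earlier results of these data known. Named genes were Bcl6, Cxcr5, Il21, Fcer2a and Hmmr, then the 15 largest rises and the 15 largest falls with groups apart, up to 4 members of each list by smallest p, and any member of the SLAM, surface, transcription factor and cytokine lists. Other list members that are named were chosen after their values were seen, to complete a count or a role, and so was Iltifb. Promoters of genes in RefSeq on GRCm38.p6 were searched for short motifs. Alternatives were an intensity trend or robust eBayes, quantile normalisation, median centring, filters at the 25th percentile and median, all rows, 1 probe set or a mean per gene, the 4 arrays alone, an adjusted p under 0.1, a change of 1.5-fold or more, a term for the replicate number, and a fit without each array in turn.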

Additional observations from a re-analysis of the deposited data

How the results depend on the processing

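The count of 2610 called probe sets came to 1579 when all rows were tested and 822 when a change of 1.5-fold or more was also asked, and leaving out 1 array gave 1317 to 2097. The higher calls came to 437 at 1.5-fold or more and to 637 to 1128 without 1 array, and the lower calls to 758 with all rows, 385 at 1.5-fold or more and 664 to 1205 without 1 array. Replication genes that rose numbered 9 with all rows, 6 at 1.5-fold or more and 7 to 20 without 1 array. Cytokine genes that rose numbered 6 at 1.5-fold or more and 6 to 9 without 1 array. The higher share of the calls was 46.8% and ranged from 42.4% to 53.9% over the alternatives, and the median over all probe sets from -0.06 to -0.01. No named gene that was called changed direction. Of 153 named genes that were called, 117 were called under every alternative that could be fitted and 11 more in all but the 1.5-fold one. Of 65 not called, 17 were called under at least 1 alternative.

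The groups share replicate numbers 1 and 2, but no label says that a number marks a shared animal or day. Deviations of same-numbered arrays correlated at 0.258 between the 2 groups compared, and with 2 numbers this does not establish a pairing. With the number as a block, 2411 probe sets were called, 1148 higher and 1263 lower, and of the named genes that were called, Il10 and Osm were not. Without 1 array, a group is left with 1 array that is assumed to vary like the others. With 2 arrays a group, small differences can be missed.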

Other observations

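Genes for cytotoxic function and NK receptors did not move as a block. Between the Cxcr5-Bcl6- and Cxcr5+Bcl6- sorts, 4 of 19 rose and 6 fell. Klrb1c (0.80), which encodes NK1.1, Klrc1 (0.56), Gzmk (0.42) and Nkg7 (0.38) rose, while Tyrobp (-1.83), an adaptor that dendritic cells share, Eomes (-0.95), Fasl (-0.82), Klrg1 (-0.64), Klrd1 (-0.57) and Crtam (-0.35) fell. Klrb1c stood at 6.19 and 6.01 against 6.85 and 6.94, all below the 7.48 that marks the 95th percentile of the receptor reference, as were all 4 arrays for Gzmk, Klrd1 and Kdr. Without Cxcr5+Bcl6- replicate 1, 2 of the 4 rises were called. Of 25 chemokine and lipid trafficking receptor genes, 5 rose, namely Cxcr3, Ccr6, Cxcr4, S1pr4 (0.45) and S1pr1 (0.40), of which 3 were called without Cxcr5+Bcl6- replicate 2. Ccr9, Ccr7 (-0.38) and Gpr183 (-0.36), the oxysterol receptor that positions cells at the follicle's edge, fell, of which 1 was called without either Cxcr5+Bcl6- array or without Cxcr5-Bcl6- replicate 2. Pecam1 rose by 0.75, from 10.21 and 10.04 to 10.88 and 10.87, whereas Kdr (-0.55) fell and 10 other stromal and endothelial genes were not called.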
